A study of Mus musculus with 15 samples.

Results

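The ATP-binding cassette (ABC) transporter family was described across 15 mouse liver RNA-seq libraries. Its members were taken by symbol, as the entries of the count tables named Abca to Abcg with a number and at most 1 further letter, which gave 50 of 24499 genes. Libraries came from adult male C57BL/6 mice and fall into 8 groups by treatment, feeding and day. CCl4 (carbon tetrachloride, a solvent that injures hepatocytes once cytochrome P450 has activated it) was injected at 0.2 ml/kg 2 times weekly over 6 weeks, and the CCl4 arms taken at day 20 went on at 0.5 of that dose. The comparison arm is called OO in the labels, which do not spell it out. Ethanol was given by gastric feeding tube over 3 weeks, with a top dose of 25 g/kg/day. Ethanol arms carry a high-fat diet in the labels and the other fed arms carry chow, so ethanol and diet cannot be told apart in any comparison. The groups were OO at day 0 (n = 2, libraries 1 and 2), CCl4 at day 0 (n = 2, libraries 3 and 4), OO with chow at day 20 (n = 1, library 12), OO with ethanol at day 20 (n = 3, libraries 13 to 15), CCl4 with chow at day 20 (n = 2, libraries 16 and 17) and CCl4 with ethanol at day 20 (n = 3, libraries 18 to 20). The labels place a further OO pair in another substudy, taken at day 23, with chow in library 5 and ethanol in library 6 (n = 1 each). The labels do not say which libraries share an animal, so the spread between libraries may be partly technical.

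ABC proteins use ATP to move lipids, sterols, bile salts, conjugates or drugs across membranes, except for the E and F subfamilies, which have no membrane part and act in translation. In hepatocytes the canalicular members export bile salts, phospholipid, bilirubin conjugates and drugs into bile, while basolateral members return conjugates and bile salts to blood, a route known to gain weight when bile flow is blocked. The A and G subfamilies move cholesterol to apolipoproteins or into bile, and the D subfamily takes very-long-chain acyl-CoA and bile acid precursors into peroxisomes. Nuclear receptors and the stress factor NRF2 are known to set the transcription of many of these genes in liver. The members were described by role: 6 canalicular, 5 basolateral, 3 peroxisomal, 5 sterol, 4 mitochondrial, 5 lysosomal, 4 neighbouring A subfamily genes, 4 cytosolic and 14 others.

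Sequences are shown for Abcc4, the member with the smallest adjusted p for ethanol in OO livers, and for the gene pair that moved together, Abcg5 and Abcg8. They are from RefSeq promoter windows on GRCm38.p6, the patch level of the mm10 build. Abcc4 has 2 annotated starts, and the 250 bases before each are printed, with capitals on the match to TGACNNNGC, the core of the NRF2 binding element, searched on both strands. The first, at chr14:118706220-118706469 on the minus strand, has its match, read there as the reverse complement, 16 bases from the start, and the second, at chr14:118676932-118677181 on the same strand, has it 14 bases from the start. Abcg5 on the minus strand and Abcg8 on the plus strand have annotated starts 110 bases apart and are read away from each other. A single spacer at chr17:84683012-84683120 lies before both of these starts. Abcg8 has a further annotated window at chr17:84676052-84676351, which lies within Abcg5 and does not hold this spacer.
Abcc4, first start: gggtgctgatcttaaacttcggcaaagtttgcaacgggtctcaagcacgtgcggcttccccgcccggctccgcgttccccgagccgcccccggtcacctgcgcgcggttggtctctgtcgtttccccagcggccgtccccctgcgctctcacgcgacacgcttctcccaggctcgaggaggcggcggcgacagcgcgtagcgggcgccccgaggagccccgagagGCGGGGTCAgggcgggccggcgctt
Abcc4, second start: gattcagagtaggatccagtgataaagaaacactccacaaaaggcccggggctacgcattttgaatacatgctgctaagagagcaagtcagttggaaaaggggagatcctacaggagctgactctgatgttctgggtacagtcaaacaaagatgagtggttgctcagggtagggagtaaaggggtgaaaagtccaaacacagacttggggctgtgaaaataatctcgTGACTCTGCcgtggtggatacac
Abcg5 and Abcg8, spacer read on the Abcg8 strand: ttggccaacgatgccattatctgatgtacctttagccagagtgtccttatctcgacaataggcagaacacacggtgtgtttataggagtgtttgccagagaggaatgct
TGACNNNGC was found in 12.4% of all 32851 promoter windows of 300 bases and in 7 of the 45 windows of the family. These were windows of Abca8b, Abcb1a, Abcc10, Abcc2 and Abcc4. The second motif searched, AGGTCA, the nuclear receptor half-site, was in 16.3% of all windows and in 7 of the 45, those of Abcb11, Abcb6, Abcc10, Abcc2 and Abcg2. A match is a description of the letters and shows no binding. Windows were at hand for 38 members.

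Each library held between 10347844 and 28843258 gene counts, of which the family took 0.501% to 0.682%. Values below are CPM, the counts scaled to library size with TMM normalisation. Hepatocyte markers such as Alb and Apoa1 summed to between 45536 and 80236 CPM in every library. Libraries 6 and 12 stood apart by exocrine pancreas genes, whose 12 markers summed to 176 and 180 CPM there and to 6.31 to 14.5 CPM elsewhere. Library 12 is the only day 20 OO chow control, and its summed macrophage markers were 1675 CPM against 1069 CPM in library 5. With library 5 in its place, 94 in place of 538 genes were called for ethanol in OO livers, and values with that control are given beside the members called there and some others.

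Per length (RPKM, CPM per kilobase of exon), the bile salt export pump gene Abcb11 led the family, with a median of 171 over the libraries. Next came Abca6 at a median of 88.5 RPKM, the conjugate exporter Abcc2 at 86.5, the peroxisomal Abcd3 at 81.6, the cholesterol exporter Abca1 at 69.5, the basolateral exporter Abcc3 at 51.2 and the phospholipid flippase gene Abcb4 at 36.2. Over the libraries the range of each of these 7 genes overlapped that of its neighbour in this order. Abca1, at most at 83.3 RPKM, and Abcb11, at least at 114, did not overlap. Abcc4, Abcb1a, Abcb1b, Abcc1 and Abcc5 had medians between 0.462 and 2.24 RPKM. Abca15, Abca16, Abca17, Abcb5, Abcc8 and Abcg4 did not pass the filter on low counts. Abcb5 had 0 counts in all libraries, and 44 members remained for tests. Among members with counts in every library the ratio of the highest to the lowest library was widest for Abcd2, at 24.5, followed by Abcc4 at 22.9 and Abcg8 at 15.8. It was 1.57 for Abca1 and 1.68 for Abcb4.

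**Figure D1:**
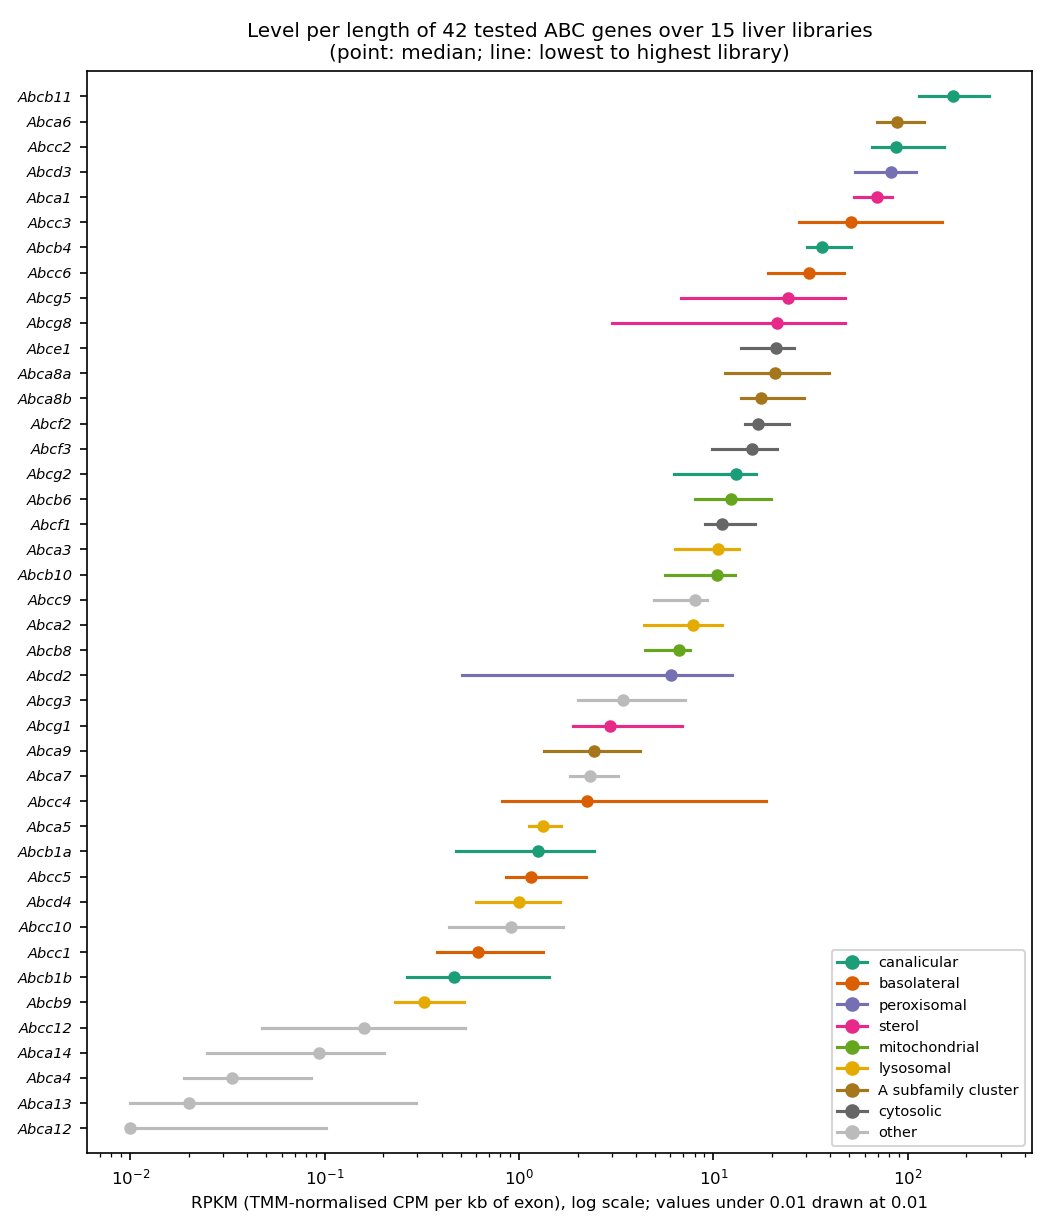
Level per length (RPKM, log axis) of 42 tested ABC genes over 15 libraries, with a point at the median, a line from the lowest to the highest library, and colours for roles. Abcb11 stands highest at a median of 171 RPKM, and Abcd2, Abcc4 and Abcg8 have the longest lines among genes with a median above 1 RPKM.

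Calls were made with edgeR's quasi-likelihood test at an adjusted p (Benjamini-Hochberg over 14778 genes) under 0.05. Among the 8 groups, 28 of 44 members differed somewhere, against 28.1% of all genes tested. The 28 include Abca12, which passed the filter on low counts through library 6 alone. At day 0 CCl4 livers had 4 members higher and 0 lower than OO livers, where 2.06% of all genes passed (0.947% higher and 1.11% lower). Ethanol in OO livers at day 20 went with 3 members higher and 2 lower (3.64% of all genes, 1.22% higher and 2.42% lower). In CCl4 livers it went with 0 higher and 3 lower (1.27% of all genes, 0.501% and 0.765%). With ethanol, CCl4 livers had 8 members higher and 13 lower than OO livers (23.7% of all genes, 12.7% and 11%). With chow 1 was higher and 0 lower (0.189% of all genes, 0.0203% and 0.169%). The effect of ethanol differed between CCl4 and OO livers for 1 member (0.0135%). From day 0 to day 20 on chow, 6 members rose and 8 fell in CCl4 livers (11.5% of all genes, 7.27% and 4.2%). These comparisons share libraries: both ethanol contrasts feed the interaction, and each day 20 group enters more than 1 comparison. The count for CCl4 against OO livers with chow rests on library 12 as the only control. With the OO libraries of days 20 and 23 merged by feeding, 237 of 14315 genes were called there, 184 of them higher. Abcc12 was then the 1 member called, and it was higher. Over the 44 members the median log2 change was 0.16 for ethanol in OO livers and -0.14 for CCl4 under ethanol, beside 0.01 and -0.04 over all genes.

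**Figure D2:**
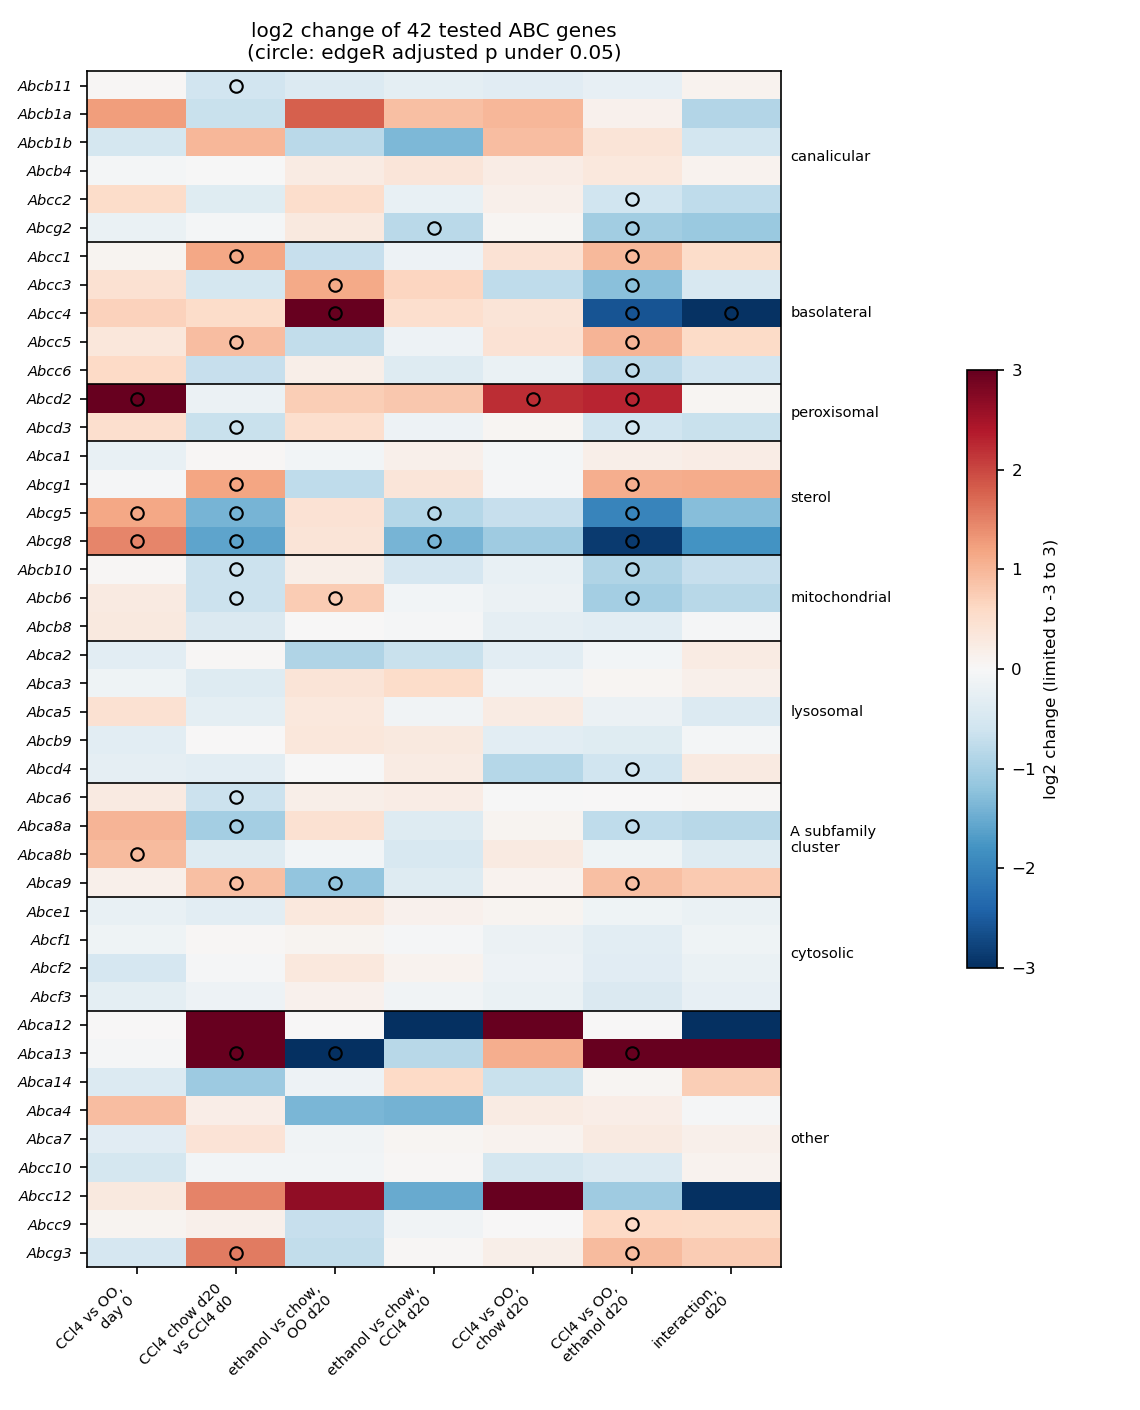
Colours give the log2 change of 42 tested ABC genes (lines, grouped by role) in each of 7 comparisons (columns), limited to -3 to 3, and a circle marks an edgeR adjusted p under 0.05. The column of CCl4 against OO livers under ethanol holds 20 circles and that of the interaction 1, at Abcc4.

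All 5 basolateral exporters differed between CCl4 and OO livers under ethanol (23.7% of all genes), and 2 rose with ethanol in OO livers (1.22% of all genes). Abcc4, which exports bile salts, cyclic nucleotides and conjugates to blood and lies on chromosome 14 (118482692 to 118706219, minus strand, mm10), was the member with the smallest adjusted p in OO livers. Its values were 120, 115 and 84.4 CPM in the 3 OO ethanol libraries of day 20 and 9.48 CPM in the chow library. Every other library apart from the day 23 ethanol library had between 5.23 and 21.7 CPM. The rise was 11.2-fold, a log2 change of 3.49 ± 0.31 (SE, edgeR adjusted p = 0.000643), and with library 5 as the control it was 3.70 (adjusted p = 0.000462). In CCl4 livers the gene stood at 14.9, 17.0 and 21.7 CPM with ethanol and at 14.3 and 10.6 CPM with chow. These groups did not overlap, but the log2 change of 0.51 ± 0.21 did not pass (adjusted p = 0.341). The test of the difference between the ethanol effects gave a log2 value of -2.98 ± 0.35 (95% interval -3.75 to -2.20, adjusted p = 0.0235). With library 5 as the control the difference was -3.19 (adjusted p = 0.0122). Under ethanol, Abcc4 was 5.99-fold lower in CCl4 than in OO livers (adjusted p = 2.8e-05), with no overlap of 3 against 3 libraries. Leaving out library 1, 2, 3, 4, 16 or 18 ended the call of the difference between ethanol effects, with adjusted p up to 0.120 and log2 values between -3.19 and -2.75 over the settings tried.

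Abcc3, which exports glucuronides and bile salts across the basolateral membrane, had the highest median RPKM of these exporters. Its values were 850, 635 and 607 CPM in OO ethanol libraries and 319 CPM in the chow library of day 20. In CCl4 livers at day 20 they were 292, 334 and 254 CPM with ethanol and 218 and 157 CPM with chow, so that both pairs of groups were apart. The rise in OO livers was 2.19-fold (log2 1.13 ± 0.27, edgeR adjusted p = 0.0454). With library 5 in place of library 12 it was 1.20 on the log2 scale and did not pass (adjusted p = 0.0854). Nor was it called without library 1, 2, 3, 4, 14, 15, 18 or 20, with log2 changes of 0.96 to 1.22 over all settings. For CCl4 livers the ethanol change was 0.65 ± 0.20 (adjusted p = 0.210), and the difference between both ethanol effects was -0.48 (95% interval -1.20 to 0.23), which did not pass and does not show that they were alike. Under ethanol Abcc3 was 2.38-fold lower in CCl4 than in OO livers (adjusted p = 0.00075).

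Of the other basolateral members, Abcc1 and Abcc5, exporters of glutathione conjugates and of cyclic nucleotides that many cell types express, went the opposite way under ethanol. Both were higher in CCl4 than in OO livers, by a log2 change of 0.98 ± 0.21 for Abcc1 (adjusted p = 0.0059) and 1.01 ± 0.15 for Abcc5 (adjusted p = 0.000768). Abcc1 had 20.0, 12.3 and 15.6 CPM in CCl4 ethanol libraries and 9.41, 7.72 and 7.26 CPM in OO ethanol libraries. Abcc5 had 21.4, 18.1 and 23.4 CPM against 9.51, 12.4 and 9.21 CPM. In both genes all 3 CCl4 libraries lay above all 3 OO libraries. From day 0 to day 20 on chow both rose in CCl4 livers, by 1.16 and 0.92 on the log2 scale (adjusted p = 0.0158 and 0.00939). The Abcc1 rise was not called without library 3, 4 or 17 (adjusted p up to 0.148), nor that of Abcc5 without library 3 or 4 (up to 0.0921). Abcc6, a hepatocyte exporter whose loss causes ectopic calcification, fell in CCl4 against OO livers under ethanol, from 207 ± 52.1 to 121 ± 10.1 CPM (SD, n = 3 each; log2 -0.78, adjusted p = 0.00679).

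Markers of other cell types moved with these comparisons. Under ethanol 8 of 9 macrophage and 6 of 8 stellate cell markers were higher in CCl4 than in OO livers (12.7% of all genes). The summed macrophage level was 1850 to 2180 CPM in CCl4 ethanol libraries and 675 to 855 CPM in OO ethanol libraries, and the stellate level was 1101 to 1508 CPM against 468 to 610 CPM. No marker of either list was at 0 in any library. In the same comparison 5 of 6 neutrophil and 6 of 8 cell cycle markers were higher, with sums of 60.7 to 138 CPM against 18.8 to 31.7 CPM and of 157 to 466 CPM against 42.9 to 54.5 CPM. Hepatocyte markers summed to 54730 to 66163 CPM in the CCl4 and 45536 to 50593 CPM in the OO libraries, with 0 of 5 tested passing. Of other lists, 2 of 6 cholangiocyte markers were higher, 1 of 7 endothelial and 1 of 3 fat cell markers were lower, and 0 of 7 lymphocyte markers passed. From day 0 to day 20 on chow in CCl4 livers, 7.27% of all genes rose and 4.2% fell. Here 9 of 9 macrophage markers rose, from 493 to 520 CPM to 1366 to 1975 CPM in sum. So did 2 of 8 stellate markers, 6 of 6 neutrophil markers (9.79 to 17.2 CPM at day 0 and 183 to 212 CPM at day 20) and 6 of 8 cell cycle markers (68 to 83 CPM and 235 to 287 CPM). Libraries 3 and 4 of day 0 had 1 and 2 of the 6 neutrophil markers at 0. Of 5 hepatocyte markers tested 1 fell, and 0 of 7 endothelial, 0 of 6 cholangiocyte, 0 of 7 lymphocyte and 0 of 3 fat cell markers passed. The part of these cells in the changes of Abcc1, Abcc5 or any other member was not tested, and in whole liver fewer cells of a type and less RNA per cell cannot be told apart.

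**Figure D3:**
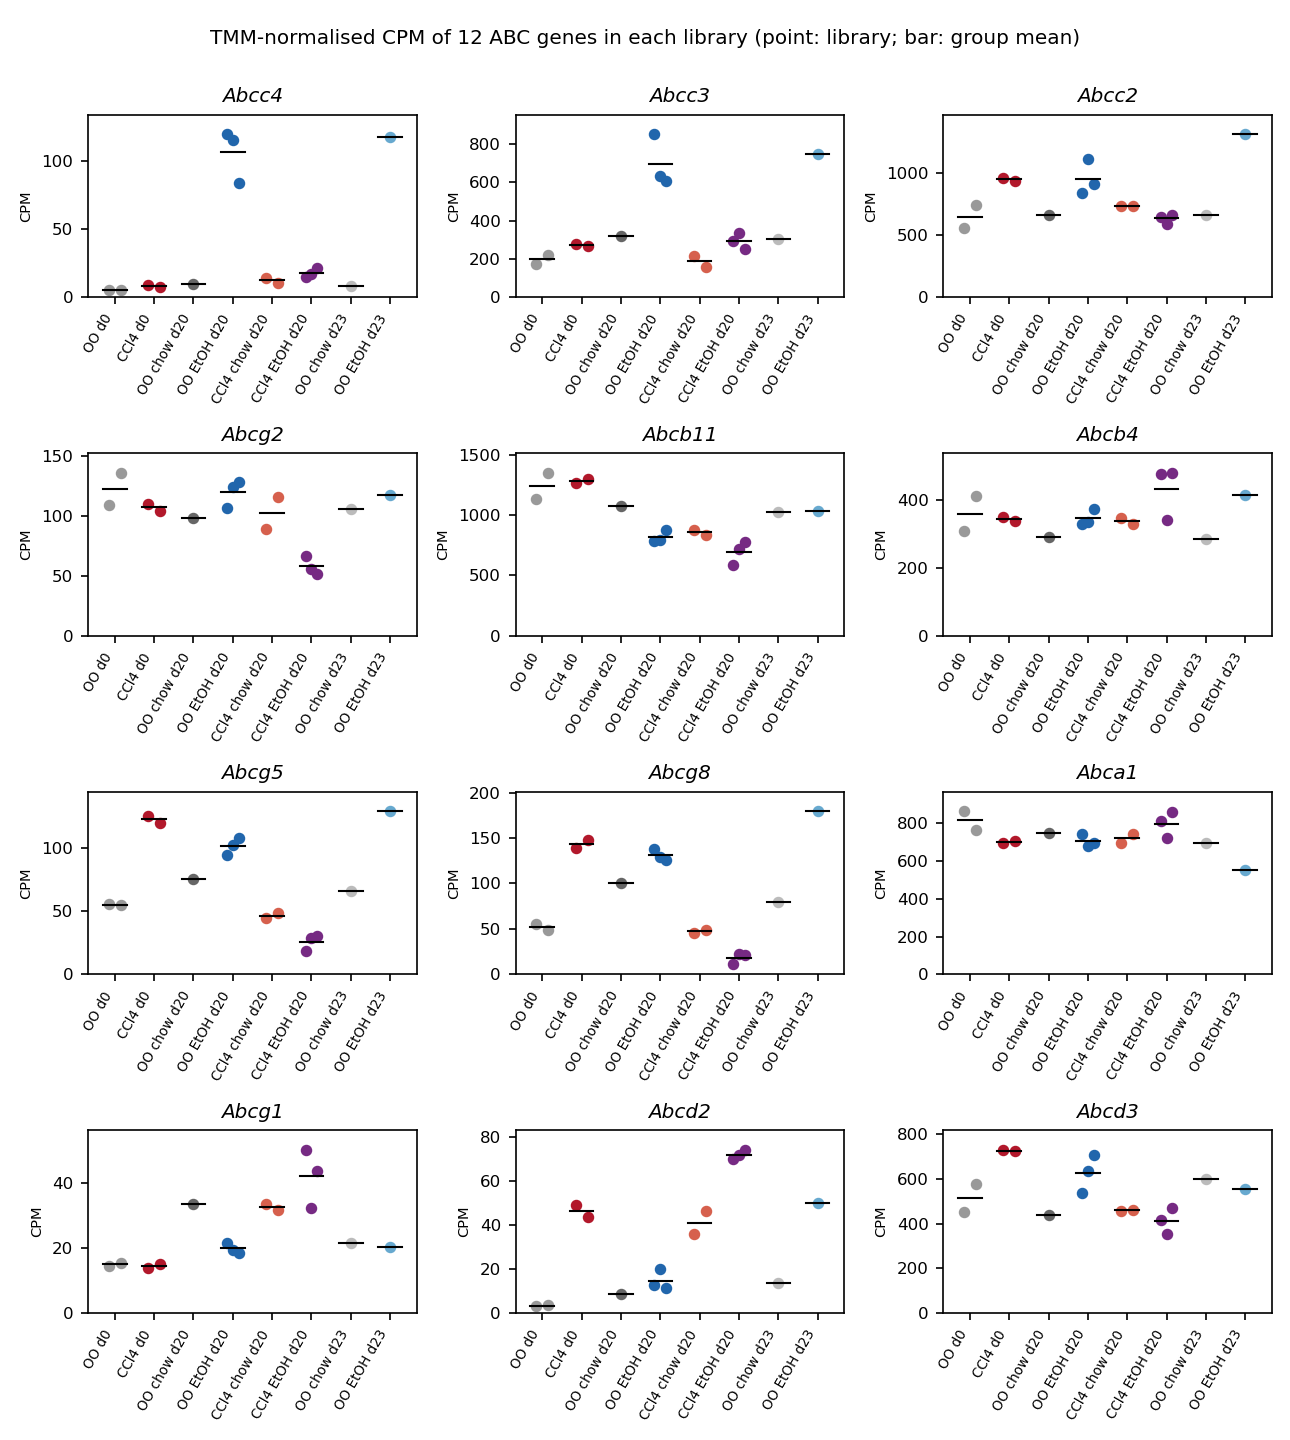
Each panel gives TMM-normalised CPM of an ABC gene (linear axis from 0) in every library by group, with a bar at the group mean and d for day. Abcc4 is between 84.4 and 120 CPM in OO ethanol libraries and at most 21.7 CPM in all others, whereas Abcg5 and Abcg8 are lowest in CCl4 ethanol libraries.

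Of the 6 canalicular exporters, 2 were called in CCl4 against OO livers under ethanol (23.7% of all genes) and 0 for ethanol in OO livers (3.64% of all genes). Abcg2, which exports sulphates, urate and many drugs, was the canalicular member called for ethanol against chow in CCl4 livers. It stood at 66.6, 55.7 and 51.2 CPM with ethanol and 88.7 and 115 CPM with chow, a 1.76-fold fall with no overlap (log2 -0.82 ± 0.16, edgeR adjusted p = 0.0364). In OO livers the values were 106, 124 and 128 CPM with ethanol and 98 CPM with chow, a log2 change of 0.29 ± 0.21 (adjusted p = 0.503) that was 0.18 with library 5 as the control. The difference between these effects, -1.10 (95% interval -1.70 to -0.51), did not pass over all genes (adjusted p = 0.180), nor did that with library 5 as the control (0.379). DESeq2 called the difference between the ethanol effects on Abcg2, at -1.11. Under ethanol Abcg2 was 2.06-fold lower in CCl4 than in OO livers (adjusted p = 0.000629). Its fall with ethanol was no longer called without library 3, 4, 16, 17, 19 or 20, with adjusted p up to 0.239 over the settings tried, nor when just the 5 libraries compared were fitted.

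Abcb11, the bile salt export pump, had 1133 and 1348 CPM in OO and 1267 and 1295 CPM in CCl4 livers at day 0. At day 20 its values were 1077 CPM with OO and chow, 785, 793 and 873 CPM with OO and ethanol, 879 and 832 CPM with CCl4 and chow, and 587, 718 and 774 CPM with CCl4 and ethanol. Its one called pairwise change was the fall in CCl4 livers from day 0 to day 20 on chow (log2 -0.58 ± 0.17, adjusted p = 0.0446), a call lost without any 1 of libraries 1 to 4 and 14 to 17 (adjusted p up to 0.205). Nor was that fall called with no filter on low counts. For ethanol the log2 change of Abcb11 was -0.40 (95% interval -0.81 to 0.01) in OO and -0.30 (-0.63 to 0.02) in CCl4 livers. Abcb4, the flippase that supplies bile with phospholipid, passed in no comparison of the edgeR fit over all libraries. Without library 19 it was called higher in CCl4 than in OO livers under ethanol (0.47, adjusted p = 0.0344). Its lowest value was 286 CPM and its highest 480 CPM, and the ethanol change was 0.26 (-0.24 to 0.75) in OO and 0.35 (-0.03 to 0.74) in CCl4 livers.

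Abcc2, the canalicular exporter of bilirubin and glutathione conjugates, was 1.51-fold lower in CCl4 than in OO livers under ethanol (adjusted p = 0.0129). The CCl4 libraries had 647, 593 and 665 CPM and the OO libraries 844, 1111 and 915 CPM, with no overlap. The call was lost when just these 6 libraries were fitted (adjusted p = 0.0508). Library 12 had 659 CPM, and the log2 change of Abcc2 with ethanol in OO livers at day 20 was 0.54, which was not called. With the OO libraries of days 20 and 23 merged by feeding, this rise was called (0.65, edgeR adjusted p = 0.0391). The drug exporter genes Abcb1a and Abcb1b differed among the 8 groups (adjusted p = 0.0156 and 0.0161) but were called in no single comparison by the edgeR fit over all libraries. Abcb1a had 7.23, 13.4 and 6.02 CPM in OO ethanol libraries and 2.61 CPM in library 12, a log2 change of 1.78 ± 0.48 (adjusted p = 0.0685). DESeq2 called it (adjusted p = 0.0115), as did edgeR with no filter (0.0432), with the days merged (0.0186) and without library 13 (0.0335), while with library 5 as the control it was 1.13 (0.315). At day 0 its change of 1.25 (adjusted p = 0.111) was called by DESeq2 (0.04996), with just the 4 libraries compared (0.00565) and without library 14 (0.0474). Abcb1b had 2.36, 3.80 and 3.53 CPM in CCl4 ethanol and 5.04 and 11.3 CPM in CCl4 chow libraries, a change of -1.36 ± 0.32 (adjusted p = 0.0702). DESeq2 (0.0205), edgeR with no filter (0.0457) and edgeR without library 16 (0.023) called it, and without library 16 its rise from day 0 to day 20 on chow was called too (1.47, 0.0226). These neighbouring genes are close copies, and since reads with more than 1 place were not counted, both levels are uncertain.

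Among sterol transporters, Abcg5 and Abcg8, whose proteins pair to export cholesterol and plant sterols into bile, moved together in every called comparison. At day 0 Abcg8 had 139 and 148 CPM in CCl4 and 55.2 and 49.3 CPM in OO livers, a 2.74-fold rise (log2 1.46 ± 0.24, edgeR adjusted p = 0.0104). Abcg5 had 125 and 120 CPM against 55.5 and 54.6 CPM, a 2.22-fold rise (1.15 ± 0.19, adjusted p = 0.0112). In both genes the groups were far apart, yet neither call held without library 1, 2, 3 or 4 (adjusted p up to 0.0974 for Abcg8 and 0.105 for Abcg5).

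By day 20 on chow the CCl4 livers had 46.1 and 49 CPM of Abcg8 and 44.2 and 48.2 CPM of Abcg5. Against CCl4 livers at day 0 this was a fall of 3.01-fold for Abcg8 (adjusted p = 0.00287) and 2.65-fold for Abcg5 (adjusted p = 0.00194), and both calls held under every setting tried. Ethanol then went with a further fall in CCl4 livers. Abcg8 reached 11.3, 22.1 and 21 CPM (log2 -1.40 ± 0.22, adjusted p = 0.0131) and Abcg5 18.5, 28.7 and 30.0 CPM (-0.85 ± 0.18, adjusted p = 0.0437). These were the lowest values of both genes in the series. Neither fall with ethanol was called when just the libraries compared were fitted. The Abcg8 call was lost without library 16 or 17 (adjusted p up to 0.0899), and that of Abcg5 without library 1, 2, 3, 4, 14, 15, 16, 17, 19 or 20 (adjusted p up to 0.189).

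In OO livers at day 20 ethanol libraries had 138, 129 and 126 CPM of Abcg8 and the chow library 100 CPM. Abcg5 had 93.9, 102 and 108 CPM against 75.0 CPM. The changes of 0.38 ± 0.28 and 0.43 ± 0.23 on the log2 scale did not pass (adjusted p = 0.501 and 0.334), nor did the 0.71 and 0.62 with library 5 as the control (0.320 and 0.276). The ethanol effect was lower in CCl4 than in OO livers by -1.78 (95% interval -2.58 to -0.98) for Abcg8 and -1.29 (-1.92 to -0.65) for Abcg5, and neither passed over all genes (adjusted p = 0.108 and 0.150). With library 5 as the control they were -2.11 and -1.48 (0.065 and 0.156). With the OO libraries of days 20 and 23 merged by feeding both passed, at -2.07 and -1.47 (adjusted p = 0.0345 and 0.0465). DESeq2 called both differences too, at -1.79 and -1.30. For Abcg8, so did edgeR with no filter on low counts and limma-voom with lane as a random block. With the days merged, the Abcg5 rise with ethanol in OO livers was called (0.62, edgeR adjusted p = 0.0495). That of Abcg8 was not called there. Under ethanol Abcg8 was 7.26-fold and Abcg5 3.95-fold lower in CCl4 than in OO livers (adjusted p = 2.8e-05 and 4.75e-05), and these calls held in every setting tried. The annotated exons of the pair overlap on opposite strands, and the use of strand in counting is not given in the sources used here, so their counts may not be fully separate.

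Abca1, the exporter of cholesterol to apolipoprotein A-I, passed in no comparison and ran from 551 CPM in library 6 to 863 CPM in library 1. Its ethanol change was -0.08 (95% interval -0.44 to 0.28) in OO and 0.14 (-0.14 to 0.43) in CCl4 livers. Abcg1, which loads cholesterol onto high-density lipoprotein and is abundant in macrophages, had 14.5 and 15.4 CPM in OO and 13.8 and 15.2 CPM in CCl4 livers at day 0. It rose to 33.6 and 31.8 CPM in CCl4 livers on chow at day 20 (log2 1.17 ± 0.19, adjusted p = 0.00393). Under ethanol it had 50.2, 32.5 and 43.8 CPM in CCl4 and 21.7, 19.5 and 18.4 CPM in OO livers, with no overlap (1.09 ± 0.15, adjusted p = 0.000609). The 33.4 CPM of library 12 was close to the CCl4 chow values, and library 5 had 21.4 CPM. Both rises of Abcg1 fell in the comparisons in which summed macrophage markers also rose. Without library 3 the rise from day 0 to day 20 had an adjusted p of 0.0625.

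**Figure D4:**
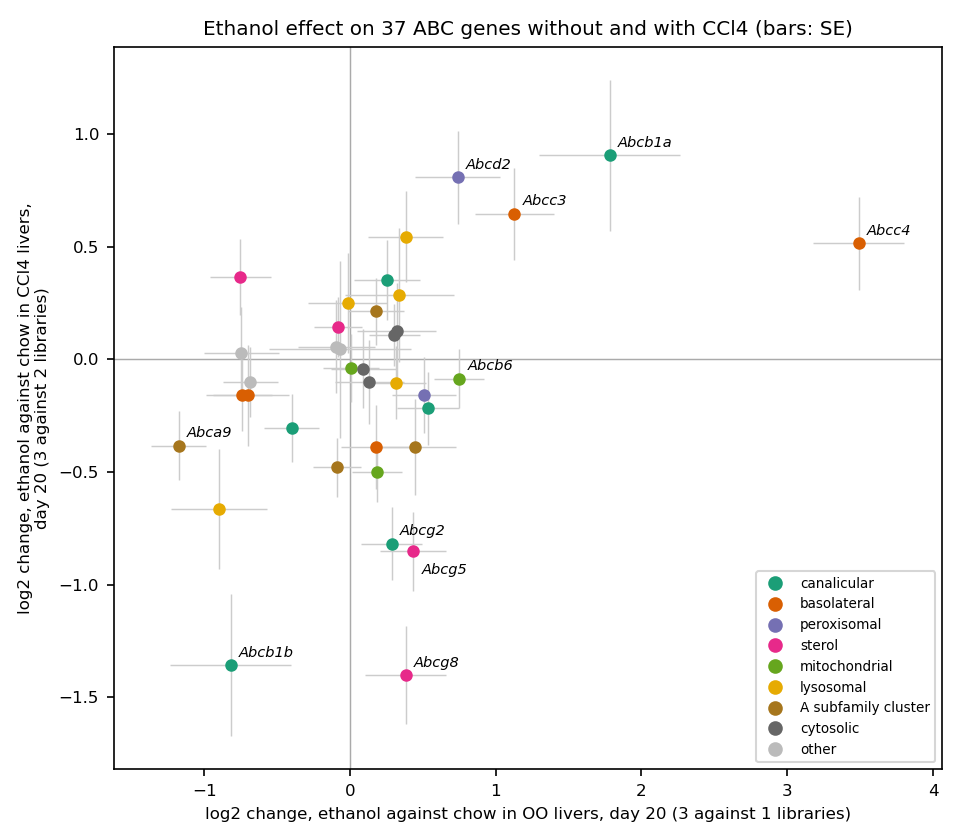
Log2 change with ethanol against chow at day 20 in OO livers (horizontal axis) and in CCl4 livers (vertical axis), with SE bars, for 37 of the tested ABC genes with a median of at least 1.5 CPM, coloured by role. Abcc4 lies far to the right at 3.49 and 0.51, and Abcg8, Abcg5 and Abcg2 lie at positive values in OO and at -1.40, -0.85 and -0.82 in CCl4 livers.

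The peroxisomal genes differed from each other. Abcd2, a transporter of very-long-chain and polyunsaturated acyl-CoA that is usually low in liver, had 48.9 and 43.7 CPM in CCl4 and 3.03 and 3.51 CPM in OO livers at day 0. This 14.1-fold rise (log2 3.82 ± 0.27, edgeR adjusted p = 7.45e-05) was the greatest called change of a member at day 0. Under ethanol Abcd2 had 70.1, 71.7 and 74.1 CPM in CCl4 livers against 12.6, 19.9 and 11.4 CPM in OO livers, 4.87-fold higher (adjusted p = 5.27e-05). With chow it had 35.9 and 46.3 CPM in CCl4 livers and 8.85 CPM in library 12, 4.64-fold higher (adjusted p = 0.014), and it was the one member called there. CCl4 libraries were above OO libraries at each of these comparisons with no overlap. With library 5 as the control the chow change was 1.57 on the log2 scale (adjusted p = 0.0267). It was not called without library 17 or with the days merged (adjusted p up to 0.112). In OO livers at day 23 the ethanol library had 49.8 CPM and the chow library 13.8 CPM. The ethanol change of Abcd2 was 0.74 ± 0.29 in OO and 0.81 ± 0.21 in CCl4 livers at day 20 (adjusted p = 0.194 and 0.103), and their difference was 0.07 (95% interval -0.70 to 0.84). With library 5 as the control the OO change was 0.09 and the difference 0.71 (adjusted p = 0.934 and 0.728). DESeq2 called the ethanol change of Abcd2 in CCl4 livers (0.81, adjusted p = 0.0185), as did edgeR without library 14 (0.0196).

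Abcd3, which brings bile acid precursors and dicarboxylic acyl-CoA into peroxisomes, was the most abundant of the 3 per length. It had 415, 352 and 469 CPM in CCl4 ethanol libraries and 538, 635 and 707 CPM in OO ethanol libraries, 1.52-fold lower (adjusted p = 0.0141). This call was lost without library 15 and when just the libraries compared were fitted (adjusted p up to 0.062 over the settings tried). In CCl4 livers it fell from 730 and 724 CPM at day 0 to 457 and 461 CPM on chow at day 20 (log2 -0.66, adjusted p = 0.0421), a call lost without library 3, 4, 14, 16, 17 or 18 (adjusted p up to 0.189). Between CCl4 and OO livers under ethanol, Abcd2 was thus higher and Abcd3 lower in CCl4 livers.

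Of the mitochondrial genes, Abcb6, which has been linked to porphyrin transport, rose with ethanol in OO livers. Its values were 105, 90.8 and 95.1 CPM with ethanol and 57.6 CPM with chow (log2 0.75 ± 0.17, edgeR adjusted p = 0.0371). With library 5 as the control the change was 0.57 (adjusted p = 0.190), and the rise was not called without library 1, 2, 3, 4, 14, 15 or 18 either. Under ethanol Abcb6 was 2.01-fold lower in CCl4 livers, at 47.6, 53.7 and 42.9 CPM (adjusted p = 0.000208). Abcb10, an inner membrane protein needed for haem synthesis, was 1.87-fold lower there (24.9 ± 0.77 against 46.6 ± 6.77 CPM, SD, n = 3 each, adjusted p = 0.000455). Both also fell from day 0 to day 20 on chow in CCl4 livers, by 0.66 and 0.64 on the log2 scale (adjusted p = 0.0154 and 0.0183). Neither fall was called without library 3, 4 or 17 (adjusted p up to 0.105 and 0.121). Abcb8 passed nowhere.

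The 4 genes listed as neighbouring A subfamily members on chromosome 11 did not move as a block. Abca5, which lies next to Abca6, was placed with the lysosomal genes and is not among them. Abca9 fell with ethanol in OO livers, to 11.8, 13.8 and 13.8 CPM from 29.7 CPM (log2 -1.17 ± 0.19, adjusted p = 0.00845). Library 12 was the high value here, since library 5 had 19.7 CPM, and against library 5 the change was -0.58 (adjusted p = 0.232). In the comparison with library 12, 6 of 9 macrophage and 10 of 12 exocrine pancreas markers were lower with ethanol (2.42% of all genes). Library 12 was itself high in both lists, at 1675 and 180 CPM in sum, against 1069 and 9.16 CPM in library 5. The part of these markers in the fall was not tested. In CCl4 livers under ethanol Abca9 was 1.87-fold higher than in OO livers (adjusted p = 0.00112), while Abca8a was 1.69-fold lower (adjusted p = 0.0149). That call of Abca8a was lost without library 15 or 18 and when just the libraries compared were fitted (adjusted p up to 0.0658). Abca8b rose in CCl4 livers at day 0, from 103 and 117 to 204 and 218 CPM (log2 0.94, adjusted p = 0.00709), and was no longer called without library 1, 3 or 4 (adjusted p up to 0.0868). Abca6, the most abundant of the 4 per length, fell from day 0 to day 20 on chow in CCl4 livers (629 ± 3.13 to 401 ± 39.2 CPM, SD, n = 2 each, log2 -0.65, adjusted p = 0.0291). In that comparison Abca9 rose (0.90, adjusted p = 0.00831) and Abca8a fell (-1.02, adjusted p = 0.0202). The calls of Abca6 and Abca8a were lost without library 3, 4, 16 or 17 (adjusted p up to 0.157 and 0.125), and that of Abca9 without library 4 or 17 (up to 0.104). Abca8a and Abca8b are close copies, so their counts are uncertain too.

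Of the remaining members, the lysosomal genes Abca2, Abca3, Abca5 and Abcb9 and the 4 cytosolic genes passed in no comparison of the edgeR fit over all libraries. Some were called in an alternative. Abcf2 was lower in CCl4 livers at day 0 on the compared libraries alone (-0.50, adjusted p = 0.0116). Under ethanol it was lower without library 13 (-0.42, 0.0214), and Abcf3 without library 19 (-0.56, 0.0433). Abca2 was called lower with ethanol in OO livers without library 13 (-1.17). Abcd4, which takes part in the release of vitamin B12 from lysosomes, was lower in CCl4 than in OO livers under ethanol (log2 -0.59, adjusted p = 0.0471). Of 23 alternative settings 14 did not call it, among them those without library 1, 2, 3, 4, 12, 14, 15, 16, 17, 18 or 20 (adjusted p up to 0.161). Abcg3, a rodent gene related to Abcg2, rose 2.96-fold in CCl4 livers from day 0 to day 20 on chow (adjusted p = 0.00282) and was 1.93-fold higher in CCl4 than in OO livers under ethanol (adjusted p = 0.00416). Abcc9, the regulatory subunit of a potassium channel of vascular and perivascular cells, was 1.51-fold higher there (70.3 ± 6.83 against 46.8 ± 7.68 CPM, SD, n = 3 each, adjusted p = 0.0109). Abca13 had at most 5.85 CPM. It was higher in CCl4 than in OO livers under ethanol (2.74, 1.10 and 4.54 against 0.198, 0.157 and 0 CPM, log2 4.41 ± 0.79, adjusted p = 0.00241). It also rose from day 0 to day 20 on chow in CCl4 livers (3.65, adjusted p = 0.0162), a call lost without library 3, 4 or 16 (up to 0.144). Its called fall with ethanol in OO livers rests on library 12, with 2.29 CPM, since library 5 had 0.195 CPM and gave a change of -0.64 (adjusted p = 0.912). Without library 3, 4, 14, 15, 16, 17 or 18 that fall was not called either. Abca4 and Abcc12 differed among the 8 groups at levels of at most 1.02 and 3.52 CPM (adjusted p = 0.0497 and 0.027). So did Abca12 (adjusted p = 0.0408), through 40 counts in library 6, against 2 in all other libraries together. Abca12 passed the filter on low counts through library 6 alone, and without that library 43 members were tested. Its call thus rests on the value that let it in.

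The day 23 pair shares no library with the day 20 comparison of ethanol in OO livers, but has 1 library on each side and so no test. Abcc4 had 118 CPM with ethanol and 8.19 CPM with chow, a log2 ratio of 3.83 with a prior count of 2 added. The ratio was 1.30 for Abcc3 (749 against 304 CPM), 0.58 for Abcb6, -0.86 for Abca9 and -0.65 for Abca13, so the 5 members called at day 20 had the same sign. For Abca13 that sign carries little weight, since it had 3 counts in library 5 and 2 in library 6. Over all 44 members 29 had the same sign on both days, and the changes had a Pearson r of 0.673 and a Spearman rho of 0.718 across genes, which are not independent replicates. At day 23, 7 members were over 2-fold higher with ethanol and 0 over 2-fold lower, where 5.56% and 5.31% of all genes were. Abcg8 was among the 7, with 179 against 79.7 CPM. So was Abca12, with 40 counts in library 6 and 0 in library 5.

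**Figure D5:**
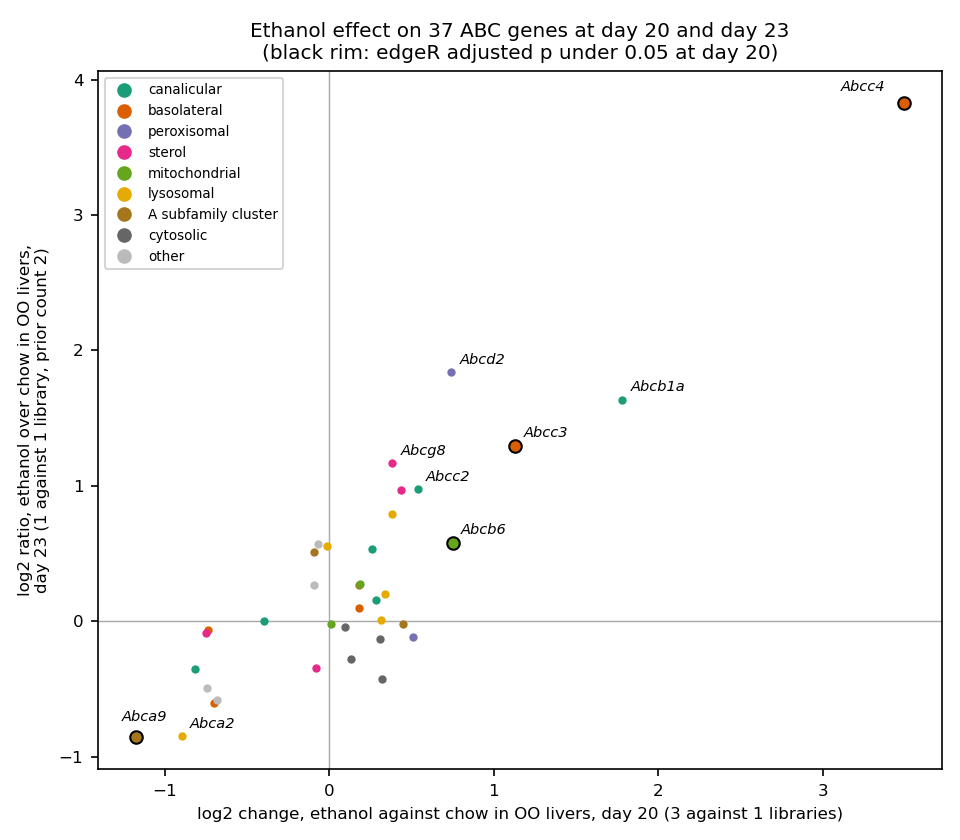
Log2 change with ethanol in OO livers at day 20 (horizontal axis, 3 libraries against 1) and log2 ratio at day 23 (vertical axis, 1 library against 1) for 37 ABC genes, coloured by role and with a black rim where edgeR called the gene at day 20. Abcc4 is at the upper right at 3.49 and 3.83, and Abca9 is at the lower left at -1.17 and -0.86.

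Genes that work with the transporters were counted from lists. Of 13 tested partners in hepatocyte transport, 0 were higher and 5 lower in CCl4 than in OO livers under ethanol, where 11% of all genes were lower. They included the uptake carriers Slco1a1 (log2 -2.09), Slco2b1 (-0.76) and Slco1b2 (-0.73), and Slc10a1, the main uptake carrier of bile salts, was also among the 5 (-0.69). Slco1a1 was lower with ethanol than with chow in OO livers (log2 -3.33, adjusted p = 0.00343, and -4.33 with library 5 as the control, 0.00103) and in CCl4 livers (-4.89, adjusted p = 0.000261), the one partner called for ethanol in either. In CCl4 livers 0.765% of all genes were lower with ethanol. At day 0 Slco1a4 was higher (2.15) and Slc22a7 lower (-1.89) in CCl4 livers, where 0.947% of all genes were higher and 1.11% lower. Both calls went the opposite way from day 0 to day 20 on chow (-2.41 and 1.39), where 7.27% of all genes rose and 4.2% fell.

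Of 12 tested enzymes of bile acid synthesis, 6 were lower and 0 higher in CCl4 than in OO livers under ethanol (11% and 12.7% of all genes). These included Cyp7b1 (log2 -3.61), Cyp8b1 (-2.54), Hsd3b7 (-1.05) and Cyp27a1 (-0.89). In CCl4 livers 2 of the 12 were lower with ethanol (0.765% of all genes), Cyp7b1 (-3.20) and Cyp27a1 (-0.87), and in OO livers 0 passed. Of 14 regulators, Nr1i3, the gene for the xenobiotic receptor CAR, rose with ethanol in OO livers (1.54, adjusted p = 0.0336), but not with library 5 as the control (0.94, 0.249). Under ethanol 3 of the 14 regulators were lower in CCl4 than in OO livers (11% of all genes), Nr1i3 (-1.51), Nr0b2 (-1.15) and Ppara (-0.85). The 1 that was higher (12.7% of all genes) was Nfe2l2, the gene for NRF2 (0.75).

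Of 14 standard targets of these regulators outside the family, 5 rose and 0 fell with ethanol in OO livers (1.22% and 2.42% of all genes). The CAR targets Cyp2b10 (log2 8.0) and Cyp2b9 (7.35) and the NRF2 targets Gstm3 (3.03) and Nqo1 (2.39) were among them. With library 5 as the control 4 rose, Cyp2b10, Cyp2b9, Gstm3 and Gclc, while Nqo1 (2.50, adjusted p = 0.0534) was not called. In CCl4 livers 4 of the 14 rose (0.501% of all genes), with Cyp2b10 at 5.83, Cyp2b9 at 8.04, Cyp4a14 at 4.05 and Cyp3a11 at 1.42. Under ethanol 5 were lower and 0 higher in CCl4 than in OO livers (11% and 12.7% of all genes), including Gclc (-1.24), Nqo1 (-1.38) and Nr0b2, which both lists hold.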

How the data were processed

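Liver poly(A) RNA went into TruSeq mRNA libraries, per the labels' protocols. The authors deposited raw counts by gene symbol, 1 table a library. The submitters' processing notes name GSNAP, DESeq2 1.12.3 and mm10. How reads were counted, on which annotation and with which strand setting, is not given in those notes or the labels. Entries that name no gene (5 a table) stayed out of totals and tests. They include reads with more than 1 place, 18.1% to 28.8% of all, and gene counts were 41.4% to 53.0% of the reads listed. Table names give 28D where labels give day 20 or 23, and the labels were followed.

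The members, gene lists and comparisons were chosen with earlier results of these data known. After filterByExpr and TMM scaling, counts were fitted with edgeR 4.0.16 (R 4.3.3) with 1 mean for each of 8 groups, leaving 7 residual degrees of freedom. A group of 1 library is assumed to vary like the others. Quasi-likelihood tests were adjusted by Benjamini-Hochberg over 14778 genes. The SE of a log2 change was derived from its test, as the size of the change divided by the square root of the F statistic. Each 95% interval is the change plus or minus that SE times a t quantile. RPKM used exon lengths of GENCODE M21. Named genes are members called in any test, 18 members of known liver roles, and up to 4 called genes per pathway list and comparison, besides the bile salt carrier Slc10a1, chosen after its value was seen. Results of some genes of the lists are not reported here, though counts over the lists include them. Alternatives (24) were RLE scaling, filters, DESeq2 1.42.0, limma-voom (limma 3.58.1) with and without lane as a block, fewer libraries, the day 23 control, merged days and each library left out.

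On simulated counts edgeR called 25% of 2-fold and 70% of 4-fold changes in the design of ethanol in OO livers, 47% and 94% in that of ethanol in CCl4 livers, and 7% and 63% in that of the interaction (14393, 14420 and 14422 genes simulated). No 2 tables were identical, and replicate pairs had chi-square values of 3.93 to 78.4 times their degrees of freedom. The 3.93 was that of libraries 3 and 4, the CCl4 pair of day 0, and every other pair had 19.4 or more. In none of the 6 pairwise comparisons did a lane hold libraries of both groups, so lane and group cannot be told apart there.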

Additional observations from a re-analysis of the deposited data

Results flagged for a closer look

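The effect of ethanol on Abcc4 differed between CCl4 and OO livers by a test of the difference itself, with a log2 value of -2.98 (edgeR interaction, adjusted p = 0.0235). It was 1 of 2 genes among 14778 for which that test passed. All 3 OO ethanol libraries (84.4 to 120 CPM) were above all 3 CCl4 ethanol libraries (14.9 to 21.7 CPM).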

How the results depend on the processing

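Over 24 alternatives, of which 22 or 23 bear on any 1 pairwise comparison, 971 of 1099 repeats of the 49 calls of a member in a comparison passed again, 128 did not, and 0 changed sign. Calls of Abcd2 at day 0, of Abcc4 with ethanol in OO livers, and of Abcc4, Abcg5, Abcg8 and Abcd2 between CCl4 and OO livers under ethanol passed in every alternative run for their comparison. For CCl4 at day 0 the count of members called was 7 with DESeq2 and 13 on the compared libraries alone. For ethanol in OO livers it was 1 (Abcc4) with the day 23 chow library as control and 10 with the days merged. For ethanol in CCl4 livers it was 7 with DESeq2 and 0 on the compared libraries alone. For CCl4 under chow it was 2 with the day 23 control. For the interaction it was 2 with no filter, 6 with DESeq2, 2 with lane as a random block and 3 with the days merged. Leaving out each library in turn gave 1 to 6 for CCl4 at day 0, 2 to 9 for ethanol in OO livers, 0 to 4 for ethanol in CCl4 livers, 19 to 24 for CCl4 under ethanol, 0 to 2 for CCl4 under chow, 0 to 1 for the interaction, 4 to 16 for day 20 against day 0 and 19 to 31 for any difference. The cause of these shifts was not tested. No paired analysis was possible because the groups share no replicate numbers. Groups of 1 to 3 libraries limit what could be called: the simulated 2-fold changes were called in 7% of genes for the interaction.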
